A study of Mus musculus with 6 samples.

Results

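The genes described here encode the matrix metalloproteinases (Mmp), their tissue inhibitors (Timp), the ADAMTS proteases and the ADAMTS-like proteins. They were chosen by symbol, as every row whose symbol is one of these names followed by a number, with earlier results of these data known. The choice gave 51 genes on 76 rows, among 22300 named genes on 35556 rows of the arrays. A gene with several rows is represented by the row with the highest mean over all arrays, and 47 of the 51 had 1 row. The name of the group holds for its enzymes only: the 4 Timp genes encode inhibitors, and the 5 Adamtsl genes encode relatives of ADAMTS proteins that lack the protease domain.

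The cells are mesenchymal stem cells of the mouse, whose RNA was read on Affymetrix arrays. Such cells are stromal cells from bone marrow that grow on plastic and can turn into bone, cartilage or fat cells. One group is the bone marrow population MSC21, and the other is Clone 4L.1.4, a tertiary clone obtained from that population, each with 3 arrays. Both were cultured in stem cell medium to confluence and no other treatment is named; the labels give no strain, age or sex. The clone group is 1 clone, and nothing says that its samples, or those of the population, came from separate animals. The p-values measure the spread between these samples, whether or not they were separate cultures.

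Matrix metalloproteinases are zinc enzymes that are made as inactive proenzymes and cut collagens, gelatin and other matrix proteins once activated outside the cell or at its surface. TIMP proteins block their catalytic site. ADAMTS proteases carry thrombospondin repeats that tether them to the matrix, where they cut proteoglycans such as aggrecan and versican, process procollagens or act on fibrillin microfibrils. In bone marrow stroma these enzymes take part in matrix turnover, bone remodelling and the release of stored growth factors.

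Levels are log2 values normalized by the authors, and a difference of 1 is a doubling. Array medians lay between 5.19 and 5.25 and lower quartiles between 4.54 and 4.58, and sizes are not exact for a gene whose level in either group lies near or below the medians. Arrays correlated across rows at 0.9946 to 0.9958 within a group and at 0.9749 to 0.9793 between groups. The mean level of 10 mesenchymal markers was 9.46 to 9.48 on the population arrays and 9.07 to 9.10 on the clone arrays. All but Eng, not called, had a mean above the median row, where 25.1% of all named genes were called lower and 26.1% higher. Of these 9 markers, 6 were called lower in the clone and 2 higher, the receptor genes Pdgfra (1.43) and Pdgfrb (0.77). These receptor genes, the collagen genes Col1a1 and Col1a2, Vim and Ly6a, which fell by 0.98 on the log2 scale, had mean levels of 9.54 or more in both groups, whereas Eng lay below every array median. Thy1 and Nt5e, surface markers of these cells, stood at 6.43 and 6.35 in the population and at 4.61 and 4.55, below the array medians, in the clone. All 6 endothelial and all 4 measured neutrophil markers lay below every array median. Of 8 leukocyte and macrophage markers 5 did so, among them the pan-leukocyte gene Ptprc, and the mean level of the list was 4.94 to 4.96 in the population and 4.76 to 4.84 in the clone. Of 4 osteoclast markers, with list means of 4.71 to 4.86 and 4.63 to 4.70, Calcr and Dcstamp lay below every array median.

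Of the 51 genes, 22 passed the test between clone and population (limma, adjusted p under 0.05, Benjamini-Hochberg adjustment across the 35556 rows). The share over all named genes was 29.1%. Of the 51 genes, 15 (29.4%) were lower in the clone and 7 (13.7%) higher, where 14.5% of all named genes were called in each direction. The call depended on level: 19 of the 25 members with a mean above the median row were called, against 51.2% of all named genes at that level, and 3 of the 26 others, against 5.8%. The 3 arrays of one group lay wholly above or below those of the other in 29 of the 51 genes, and in 43.1% of all named genes. The median log2 fold change of the 51 genes was -0.02 and that of all named genes -0.01, and individual members ran from -2.79 to 3.49. In bulk RNA of this kind, fewer cells of a type and less RNA per cell cannot be told apart.

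**Figure D1:**
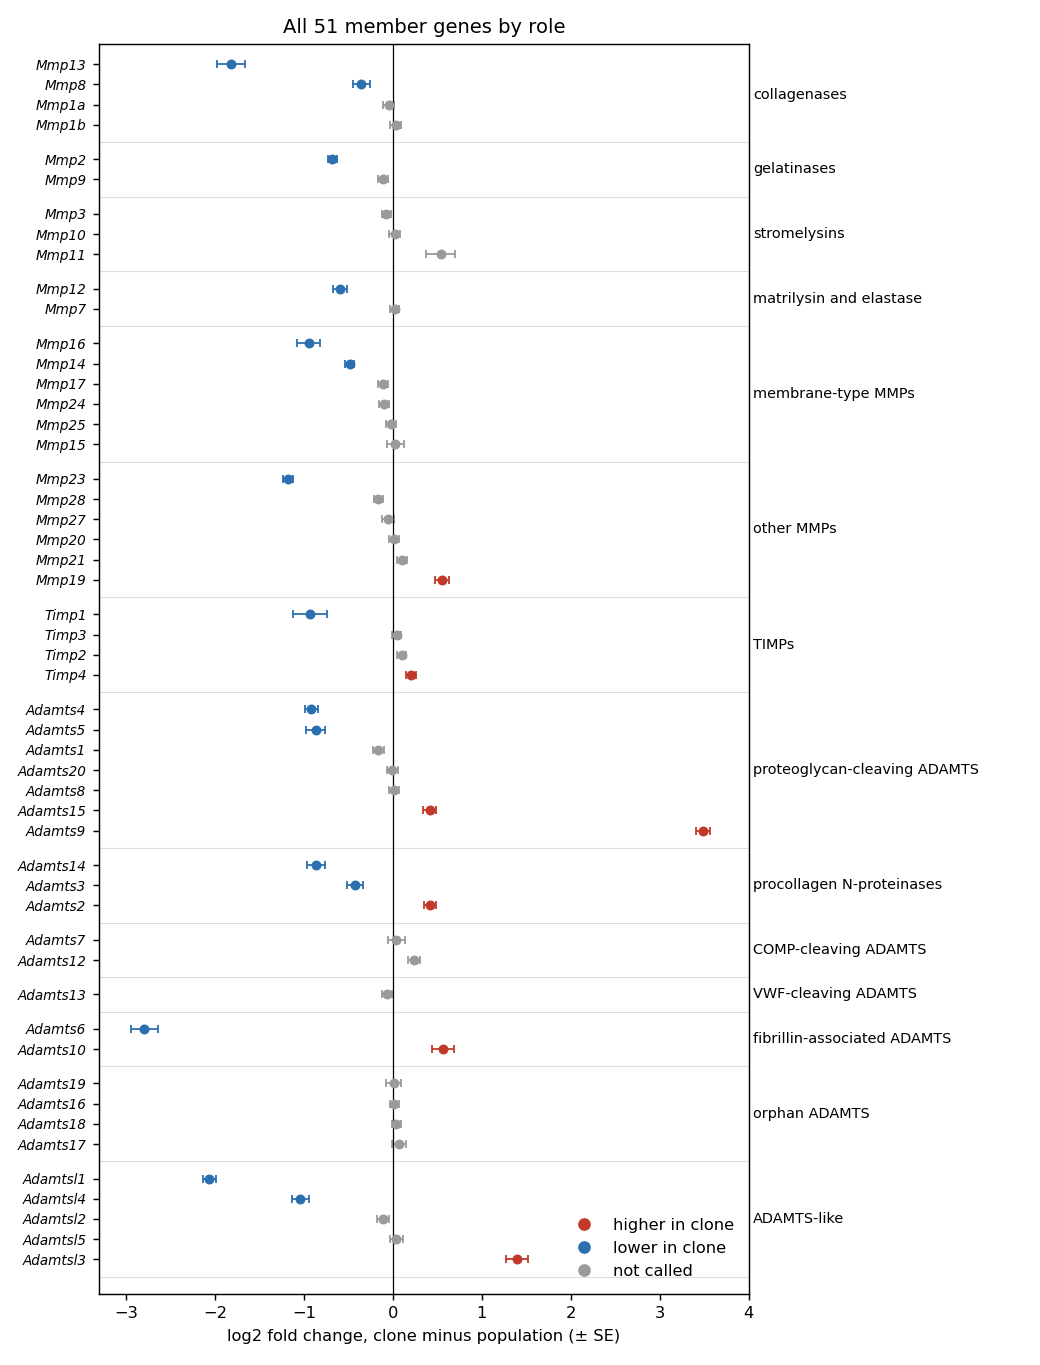
Log2 fold change (clone minus population, horizontal axis) of the 51 genes in role groups, with standard errors from the fit as bars and colour for the call at an adjusted p under 0.05. Adamts9 stands alone at 3.49 on the right, and 15 genes lie on the left in blue, down to Adamts6 at -2.79.

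Of the 51 genes, 7 were called with an at least 2-fold difference, where 3.85% of all named genes were called with such a difference. Adamts6, Adamtsl1, Mmp13, Mmp23 and Adamtsl4 fell and Adamts9 and Adamtsl3 rose, beside 2.45% of all named genes called at least 2-fold lower and 1.39% at least 2-fold higher. RefSeq upstream windows were at hand for 36 of the 51 genes and for 5 of these 7, namely Adamts9, Adamtsl3, Mmp13, Mmp23 and Adamtsl4. The 250 bases before the annotated start of each are printed because these genes carry the main differences and their windows differ in kind. Positions are those of the RefSeq build GRCm38.p6, and each sequence runs 5′ to 3′ on the strand of the gene. Capitals mark matches on either strand to the AP-1 site TGANTCA, the RUNX site TGTGGT, the ETS core AGGAAG, the TATA box TATAAA or the GC box GGGCGG; none of the matches overlap. Mmp23 has 2 windows in the table and the one farther upstream is shown.
Mmp13, chr9:7272264-7272513, plus strand: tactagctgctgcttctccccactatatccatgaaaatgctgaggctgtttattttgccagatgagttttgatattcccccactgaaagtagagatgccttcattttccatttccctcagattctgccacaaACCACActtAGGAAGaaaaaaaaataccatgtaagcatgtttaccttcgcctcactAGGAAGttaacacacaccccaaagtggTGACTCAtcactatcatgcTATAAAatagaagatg
Mmp23, chr4:155653385-155653634, minus strand: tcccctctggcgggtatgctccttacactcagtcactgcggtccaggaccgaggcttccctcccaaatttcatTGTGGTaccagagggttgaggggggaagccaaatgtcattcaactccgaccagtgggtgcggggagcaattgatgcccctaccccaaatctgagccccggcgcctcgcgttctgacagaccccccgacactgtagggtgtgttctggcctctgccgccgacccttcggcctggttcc
Adamtsl4, chr3:95687918-95688167, minus strand: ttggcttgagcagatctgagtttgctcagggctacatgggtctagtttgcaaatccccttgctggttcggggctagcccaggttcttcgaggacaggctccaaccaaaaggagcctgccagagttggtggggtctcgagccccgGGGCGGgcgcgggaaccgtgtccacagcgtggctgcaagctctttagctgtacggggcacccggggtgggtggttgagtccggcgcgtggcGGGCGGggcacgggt
Adamts9, chr6:92943535-92943784, minus strand: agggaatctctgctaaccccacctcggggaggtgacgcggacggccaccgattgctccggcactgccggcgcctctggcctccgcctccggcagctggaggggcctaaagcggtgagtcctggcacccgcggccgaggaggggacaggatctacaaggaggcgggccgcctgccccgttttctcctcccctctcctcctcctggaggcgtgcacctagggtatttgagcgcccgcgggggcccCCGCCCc
Adamtsl3, chr7:82335444-82335693, plus strand: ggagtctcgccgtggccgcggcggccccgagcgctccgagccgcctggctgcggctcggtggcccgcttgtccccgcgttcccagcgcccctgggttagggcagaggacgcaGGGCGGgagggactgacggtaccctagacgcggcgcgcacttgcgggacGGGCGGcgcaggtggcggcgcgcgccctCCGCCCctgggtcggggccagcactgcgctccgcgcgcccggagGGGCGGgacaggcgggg

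The Mmp13 window had a G and C content of 40.4%, and the others had 61.2% (Mmp23), 64.4% (Adamtsl4), 71.2% (Adamts9) and 80% (Adamtsl3). Mmp13 alone among the 5 held an AP-1 match, beginning 35 bases before the start, and a TATA box, beginning 16 bases before it. Of all 32851 windows of this length, 6.75% held an AP-1 match and 12.4% a TATA box. Mmp13 also held a RUNX match 118 bases before the start and ETS matches at 109 and 62 bases. Mmp23 held a RUNX match, and 14% of all windows held a RUNX and 29.5% an ETS match. The windows of the 2 genes that rose, Adamts9 and Adamtsl3, held 1 and 4 GC boxes and no other match, and Adamtsl4, which fell, held 2 GC boxes; 32.7% of all windows held a GC box. The motifs were chosen with earlier results of these data known. A match in these letters is a description of the sequence and does not show binding.

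**Figure D2:**
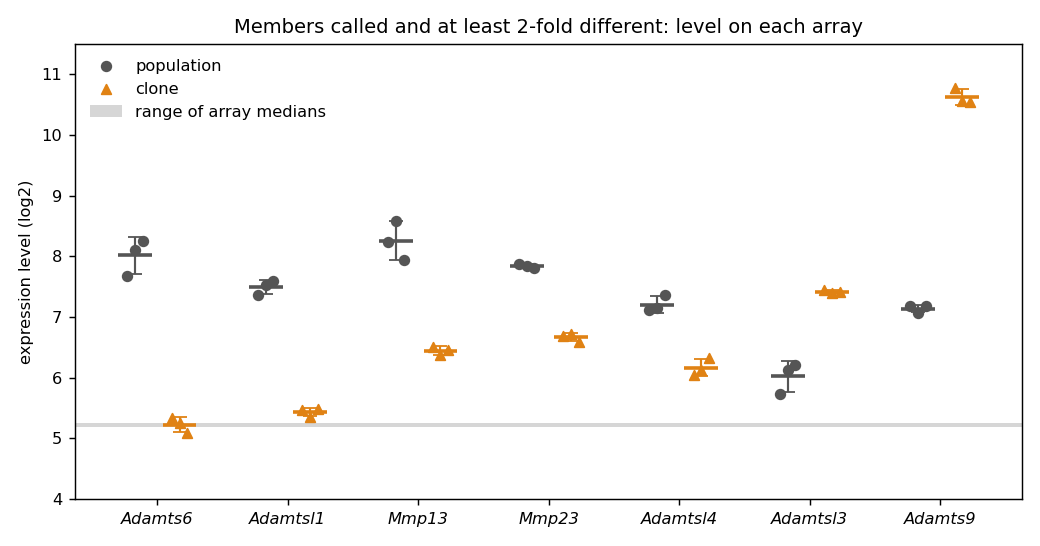
Expression level (log2, vertical axis) of the 7 genes that differed at least 2-fold, on each of 3 population arrays (grey circles) and 3 clone arrays (orange triangles), with group means and SD as lines and bars and the range of array medians as a grey band. The groups do not overlap in any of the 7, and the clone levels of Adamts6 lie on the band.

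Among the collagenases, which cut the triple helix of fibrillar collagen, Mmp13 fell. Mmp13, the main interstitial collagenase of mouse bone and cartilage, stood at 8.24, 8.59 and 7.95 on the population arrays and at 6.51, 6.37 and 6.45 on the clone arrays. The population arrays spread more widely than the clone arrays, and every one of them lay above every clone array. The difference was -1.82 ± 0.15 (log2 fold change ± SE), or 3.52-fold lower in the clone (adjusted p = 0.000266). Mmp8, the collagenase first known from neutrophils, was listed at 4.74 ± 0.17 (mean ± SD, n = 3) and 4.38 ± 0.10, both below the array medians. Its difference of -0.35 passed at an adjusted p of 0.0425, a call that ended without population replicate 1 or 2 or clone replicate 1 or 3 (adjusted p = 0.114 to 0.128). The mouse collagenase genes Mmp1a and Mmp1b did not pass, with differences of -0.05 and 0.03 at levels near the lower quartiles.

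Of the gelatinases, which cut denatured collagen and type IV collagen, Mmp2 fell. Its levels were 11.71, 11.66 and 11.72 in the population and 11.02, 11.01 and 11.02 in the clone. The arrays within each group differed by less than 0.1, and the difference between groups was -0.68 ± 0.05, or 1.6-fold (adjusted p = 0.00012). Mmp9, the gelatinase of osteoclasts and neutrophils, lay at 5.05 ± 0.06 and 4.94 ± 0.04, below the array medians, and did not pass (-0.11, adjusted p = 0.231).

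Membrane-type enzymes stay anchored at the cell surface, and MT1-MMP, encoded by Mmp14, activates the Mmp2 proenzyme there with the help of Timp2. Mmp14 fell from 10.84, 10.86 and 10.82 to 10.35, 10.41 and 10.31, a difference of -0.48 ± 0.05 (adjusted p = 0.000659). The groups were again apart on every array, by a smaller step than for Mmp2. Mmp16, which encodes MT3-MMP, fell by 0.95 on the log2 scale, from 8.57 ± 0.23 to 7.63 ± 0.14 (adjusted p = 0.00205). The 4 others, Mmp15, Mmp17, Mmp24 and Mmp25, were not called and lay between -0.11 and 0.03, with every group mean at 4.98 or lower.

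None of the stromelysins, enzymes of broad matrix specificity, passed the test. Mmp3 and Mmp10 were listed near or below the lower quartiles (differences of -0.07 and 0.02). Mmp11, stromelysin 3, had levels of 7.89, 8.24 and 7.78 in the population and 8.21, 8.63 and 8.69 in the clone. Its groups overlapped through population array 2 and clone array 1, and its difference of 0.54 ± 0.16 missed the threshold (adjusted p = 0.0557). Without population replicate 2 the adjusted p was 0.0299 and without clone replicate 1 it was 0.0224; leaving out any of the 4 other arrays gave 0.148 to 0.16.

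Mmp12, the macrophage metalloelastase, fell from 5.54 ± 0.12 to 4.94 ± 0.06 (-0.59 ± 0.08, adjusted p = 0.00164), with a clone level below the array medians. The leukocyte markers Cd53 (-0.87) and Cd14 (-0.60) were also lower in the clone, Lyz2 was higher (0.35), and the remaining 5 of the 8 markers did not pass; their part in the Mmp12 difference was not tested. The matrilysin gene Mmp7 lay near the lower quartiles and did not pass (0.02).

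Mmp13 and Mmp12 are neighbours at one end of a run of 10 protease genes on chromosome 9, in the order Mmp13, Mmp12, Mmp1b, Mmp3, Mmp1a, Mmp10, Mmp8, Mmp27, Mmp20 and Mmp7, with no other protein-coding gene of the RefSeq table between them. In this run 3 genes were lower in the clone and none higher, where 14.5% of all named genes were called in each direction. The 8 genes from Mmp1b to Mmp7 had group means of 4.75 or lower in both groups. Of these 8 only Mmp8 was called, where 3.4% of named genes not above the median level were called lower. As given above, that call ended without population replicate 1 or 2 or clone replicate 1 or 3. Chromosome 9 as a whole had a median log2 fold change of -0.10 over its genes above the median level. Of those genes, 32.5% were called lower and 9.83% higher. Mmp13 and Mmp12 were the only genes of the run above that level.

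**Figure D3:**
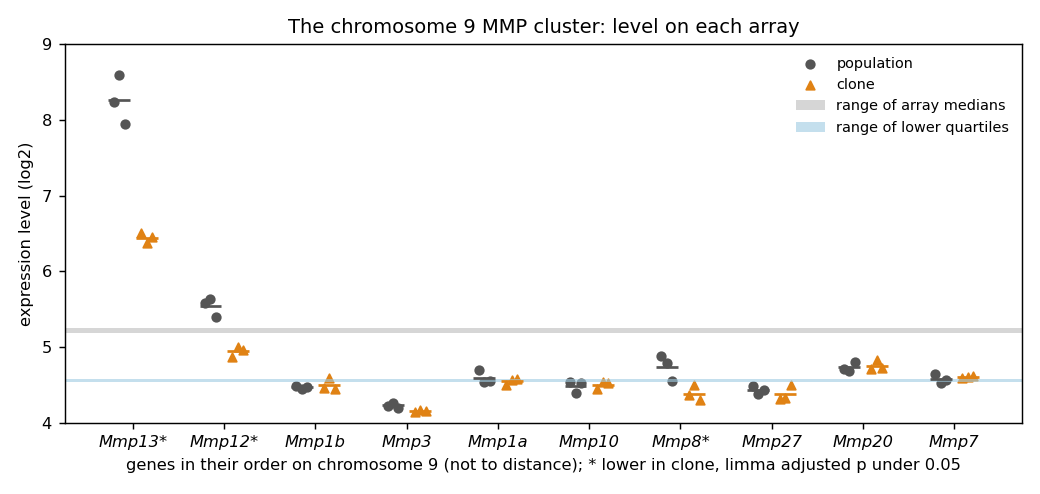
Expression level (log2, vertical axis) of the 10 genes of the chromosome 9 run in gene order, on each population array (grey circles) and clone array (orange triangles), with group means as lines. Mmp13 and Mmp12 rise above the grey band of array medians in the population, and the 8 genes to their right stay below that band in both groups.

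Among the remaining matrix metalloproteinases Mmp23 fell and Mmp19 rose. Mmp23, an unusual member held in the membrane until a convertase cuts it free, stood at 7.87, 7.85 and 7.80 in the population and at 6.69, 6.71 and 6.59 in the clone. It differed by -1.18 ± 0.06, or 2.26-fold (adjusted p = 2.39e-05), a step many times the spread within either group. Mmp19, which cuts basement membrane proteins, went the other way, from 8.06 ± 0.13 to 8.61 ± 0.03 (0.55 ± 0.08, adjusted p = 0.00217), and was the only Mmp gene called higher of 23. Mmp19 lies on chromosome 10, whose median log2 fold change was 0.20, and stood at 0.37 with each chromosome centred on its median. Mmp20, Mmp21, Mmp27 and Mmp28 were not called and lay between -0.16 and 0.10, at levels below the array medians. The Mmp family gave 7 lower, 1 higher and 15 not called. Among its 8 genes above the median level 6 were lower and 1 higher, where 25.1% of all named genes were called lower and 26.1% higher.

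The inhibitors did not move together. Timp1, which inhibits most secreted matrix metalloproteinases, stood at 12.19, 11.49 and 11.53 in the population and at 10.75, 10.92 and 10.74 in the clone. Population array 1 lay well above its 2 companions, and all 3 lay above the clone arrays. The difference was -0.93 ± 0.19 (1.91-fold, adjusted p = 0.0119), and -0.70 (adjusted p = 0.00238) without population replicate 1. Timp2, the partner of Mmp14 in the activation of Mmp2, had levels of 11.12 ± 0.03 and 11.22 ± 0.01 and did not pass (0.10 ± 0.05, adjusted p = 0.211). Timp3, the inhibitor that binds to the matrix and also blocks ADAMTS enzymes, did not pass either, at 11.21 ± 0.03 and 11.25 ± 0.03 (0.05 ± 0.05, adjusted p = 0.619). Timp4 lay below the array medians at 4.65 and 4.85, and its call (0.20, adjusted p = 0.0443) ended when any of the 6 arrays was left out (adjusted p = 0.0574 to 0.125).

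The proteoglycan-cleaving ADAMTS genes diverged, with Adamts9 and Adamts15 higher in the clone, Adamts4 and Adamts5 lower, and 3 of the 7 not called. Of the 4 above the median level 3 were called, against 51.2% of all named genes at that level. Of the 3 others 1 was called, against 5.8%. Adamts9, which cuts versican and aggrecan, stood at 7.18, 7.06 and 7.17 in the population and at 10.78, 10.55 and 10.55 in the clone. The difference of 3.49 ± 0.08, or 11.2-fold (adjusted p = 1.69e-06), was the largest rise among the 51 genes. Its 6 rows on the array all rose, by 3.00 to 3.67. The enzymes called aggrecanases, Adamts4 and Adamts5, fell: Adamts4 from 7.20, 7.21 and 7.24 to 6.45, 6.26 and 6.19, and Adamts5 from 9.33, 9.37 and 9.38 to 8.32, 8.41 and 8.74. Their differences of -0.91 ± 0.07 (adjusted p = 0.000226) and -0.87 ± 0.11 (adjusted p = 0.00146) were alike in size, and the clone arrays spread more than the population arrays for both. Adamts5 lies on chromosome 16, whose median log2 fold change was -0.20, and stood at -0.85 with each chromosome centred on its median. Adamts1, which also cuts proteoglycans, did not pass at 9.12 ± 0.08 and 8.96 ± 0.02 (-0.16, adjusted p = 0.0981). Adamts15 rose by 0.41 ± 0.08 (adjusted p = 0.00783) at levels of 4.38 and 4.80 that lie below the array medians, and Adamts8 and Adamts20 did not pass at the same low end.

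All 3 procollagen N-proteinases, which remove the amino-terminal propeptides of fibrillar procollagens, were called, in different directions. They lay above the median level, where 51.2% of all named genes were called. Adamts2 rose from 8.35, 8.35 and 8.37 to 8.70, 8.90 and 8.73 (0.42 ± 0.07, adjusted p = 0.00386). Adamts14 fell from 6.51, 6.17 and 6.51 to 5.50, 5.54 and 5.58 (-0.86 ± 0.10, adjusted p = 0.00104). For both, the arrays of the groups did not overlap. Adamts2 lies on chromosome 11, whose median log2 fold change was 0.20, and stood at 0.30 with each chromosome centred on its median. Adamts3 fell by 0.42 on the log2 scale, from 6.15 ± 0.14 to 5.73 ± 0.10 (adjusted p = 0.013). It had 16 rows, of which 12 passed as lower and 4 did not pass, and all 16 had a negative difference, from -0.76 to -0.06. Over all rows of the arrays 10.9% were called lower, and some of the 12 rows lay below the median level. The 16 rows read the same gene on the same arrays and are not replicates.

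**Figure D4:**
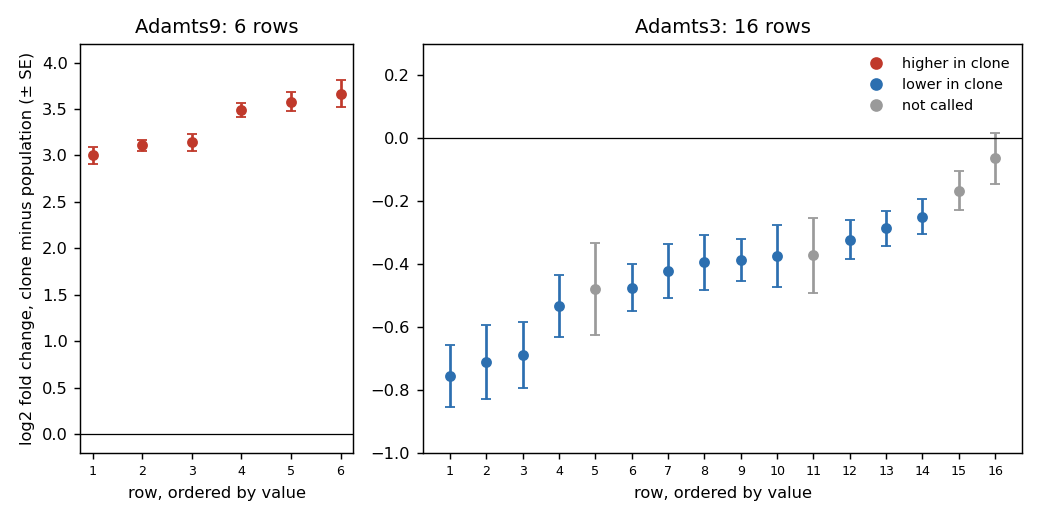
Log2 fold change (clone minus population, vertical axis, with standard errors) of each array row of Adamts9 (left) and Adamts3 (right), ordered by value on separate scales. The 6 Adamts9 rows lie between 3.00 and 3.67, and the 16 Adamts3 rows between -0.76 and -0.06 with 12 of them called.

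The largest measured fall belonged to Adamts6, a protease linked to fibrillin microfibrils and closely related to Adamts10. Adamts6 stood at 7.68, 8.11 and 8.25 in the population and at 5.33, 5.25 and 5.08 in the clone, where it reached the array medians. The difference was -2.79 ± 0.15, or 6.93-fold, not exact in size (adjusted p = 4.11e-05). Adamts10 rose from 7.27, 7.51 and 7.21 to 8.09, 7.94 and 7.65. The groups of Adamts10 lay apart by a narrow margin (0.56 ± 0.13, adjusted p = 0.0197), and the call ended without population replicate 1 or 3 or clone replicate 1 or 2 (adjusted p = 0.0571 to 0.0672). Adamts6 lies on chromosome 13, whose genes above the median level had a median log2 fold change of -0.58 with 72.1% of them called lower; its own log2 fold change minus that median was -2.22. With each chromosome centred on its median in every array, Adamts6 stood at -2.28. Adamts10, on chromosome 17 with a median log2 fold change of 0.22, then stood at 0.34.

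No COMP-cleaving or von Willebrand factor-cleaving gene and none of the 4 orphan genes passed the test. Adamts12, which cuts the cartilage protein COMP, came closest, at 7.40 ± 0.10 and 7.64 ± 0.07 (0.24 ± 0.07, adjusted p = 0.0522). Its 3 clone arrays lay above all population arrays, and without population replicate 3 the adjusted p was 0.0446; leaving out any other array gave 0.0791 to 0.138. Adamts12 lies on chromosome 15, whose median log2 fold change was -0.50, and with each chromosome centred it stood at 0.75 (adjusted p = 2.36e-05). That shift follows from the construction, since the chromosome median subtracted is lower in the clone. Adamts20, on chromosome 15 and at the low end of the arrays, moved likewise from -0.004 to 0.50. The centred value is therefore no support for a rise of Adamts12. Adamts7 lay at the array medians (0.04). Adamts13, the von Willebrand factor protease, and the orphan genes Adamts16, Adamts17, Adamts18 and Adamts19 lay below the array medians, with differences between -0.07 and 0.07.

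ADAMTS-like genes, whose products bind the matrix without cutting it, gave 2 lower, 1 higher and 2 not called. All 3 called genes were among the 4 above the median level, where 25.1% of all named genes were called lower and 26.1% higher. Adamtsl1 fell from 7.36, 7.52 and 7.59 to 5.46, 5.35 and 5.48, or 4.17-fold, not exact in size (-2.06 ± 0.08, adjusted p = 9.83e-06), and its other row fell by 1.79 on the log2 scale. The clone levels lay just above the array medians. Adamtsl1, Mmp16 and Mmp23 all lie on chromosome 4, whose median log2 fold change was -0.20. Adamtsl4, a fibrillin-binding protein needed for the fibres that hold the eye lens, fell from 7.11, 7.15 and 7.36 to 6.05, 6.12 and 6.33 (-1.04 ± 0.10, adjusted p = 0.000453). It lies on chromosome 3, whose median log2 fold change was -0.42, and stood at -0.68 with each chromosome centred. Adamtsl3 rose from 5.73, 6.12 and 6.21 to 7.44, 7.40 and 7.42 (1.40 ± 0.12, 2.63-fold, adjusted p = 0.000296), with a wider spread in the population than in the clone. Adamtsl2 and Adamtsl5 did not pass, with differences of -0.11 and 0.04.

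Genes that activate, inhibit, anchor or are cut by these proteins, or that regulate them, formed a list of 71, of which 32 were lower and 13 higher in the clone, against 14.5% of all named genes in each direction. The list was chosen with earlier results of these data known, so its counts are a description and no independent support. Of the 71 genes, 55 lay above the median level, where 25.1% of all named genes were called lower and 26.1% higher, and 29 of these 55 were lower and 11 higher. The median log2 fold change of the list was -0.16, beside -0.01 over all named genes. Among 8 genes of proenzyme activation, the urokinase gene Plau, whose product turns plasminogen into plasmin, fell from 8.42 ± 0.08 to 6.42 ± 0.05 (-2.00 ± 0.06). Plaur, its receptor, fell by 0.94 on the log2 scale, and the proprotein convertase gene Pcsk6 rose by 0.76 ± 0.09. Furin, the convertase that activates membrane-type enzymes, did not pass (-0.11, adjusted p = 0.22).

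Other protease inhibitors also moved both ways. Serpine2, an inhibitor of serine proteases, fell from 8.23 ± 0.12 to 7.52 ± 0.10 (-0.71 ± 0.08). Tfpi2, an inhibitor of plasmin and other serine proteases, rose from 5.56 ± 0.07 to 7.05 ± 0.11 (1.49 ± 0.07), and Cst3, a cathepsin inhibitor, by 0.33. Reck, a membrane-bound inhibitor of matrix metalloproteinases, had a difference of 0.37 ± 0.11 that missed the threshold (adjusted p = 0.0526). All 6 genes of surface anchors and uptake fell, by 0.30 to 0.81 on the log2 scale; 5 of them lay above the median level, where 25.1% of all named genes were called lower. Cd44, a docking site for several Mmp proteins, fell most, and Lrp1, the receptor that takes up Mmp, ADAMTS and TIMP proteins, fell from 11.12 ± 0.06 to 10.52 ± 0.02.

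Of 17 substrate genes 9 fell and 3 rose. Among the 12 above the median level 8 fell and 2 rose, where 25.1% of all named genes were called lower and 26.1% higher. Fbn2, the fibrillin of embryonic and growing tissue, rose from 6.31 ± 0.05 to 9.53 ± 0.10 (3.23 ± 0.07), while Fbn1 did not pass (-0.15, adjusted p = 0.11). The aggrecan gene Acan rose by 0.69, from 4.56 ± 0.11, which is below the array medians, to 5.25 ± 0.07. Among the substrates that fell, Spp1 (-1.96), Dcn (-1.89), Col3a1 (-1.07) and Ltbp1 (-0.93) changed most, and the versican gene Vcan fell by 0.35 on the log2 scale. Vcan lies on chromosome 13, whose genes above the median level had a median log2 fold change of -0.58. Of those chromosome 13 genes, 72.1% were called lower, so the fall of Vcan was no larger than that of its chromosome. Neither gene for glycosylation of thrombospondin repeats passed (Pofut2 at 0.17 and B3glct at -0.16).

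Metalloproteinases outside the 4 families and their helpers gave 4 higher and 2 lower of 12. All 6 called genes were among the 9 above the median level, where 25.1% of all named genes were called lower and 26.1% higher. Adam12 (0.97) and Adam17 (0.46), sheddases of the cell surface, rose with Adam9 (0.22) and the procollagen processing enhancer gene Pcolce (0.24), while Adam15 (-1.14) and Adam19 (-0.52) fell. Of 5 cathepsins 4 fell, led by Ctsk, the collagen-degrading cathepsin of osteoclasts, which went from 6.96 ± 0.11 to 4.36 ± 0.09, a size that is not exact at that clone level. Among the 4 cathepsins above the median level 3 fell, beside the same 25.1% of all named genes. Ctsk and Adam15 lie on chromosome 3 like Adamtsl4, with a median log2 fold change of -0.42 over its genes above the median level. Of those chromosome 3 genes, 61.3% were called lower. The osteoclast marker Acp5 was lower in the clone as well (-0.52) and the 3 other osteoclast markers did not pass; their part in the Ctsk difference was not tested. Ctsl fell by 1.14 on the log2 scale and lies on chromosome 13, whose median log2 fold change was -0.58.

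The regulator genes on the list encode factors of the AP-1, ETS, NF-kB and RUNX families, which bind promoters of Mmp genes such as that of Mmp13. Of 11 such genes 7 fell and 3 rose. Among the 10 above the median level 7 fell and 2 rose, where 25.1% of all named genes were called lower and 26.1% higher. Ets2 (-1.28), Jund (-1.17), Nfkb1 (-0.81) and Jun (-0.77) fell most. Their chromosomes 16, 8, 3 and 4 had median log2 fold changes of -0.20, 0.04, -0.42 and -0.20, in that order. Runx2, a factor of bone formation that acts on the Mmp13 promoter, rose from 8.09 ± 0.12 to 8.67 ± 0.12 (0.58 ± 0.09), and Ets1 by 0.23. Fos rose by 0.38, from 4.87, which is below the array medians, to 5.25.

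**Figure D5:**
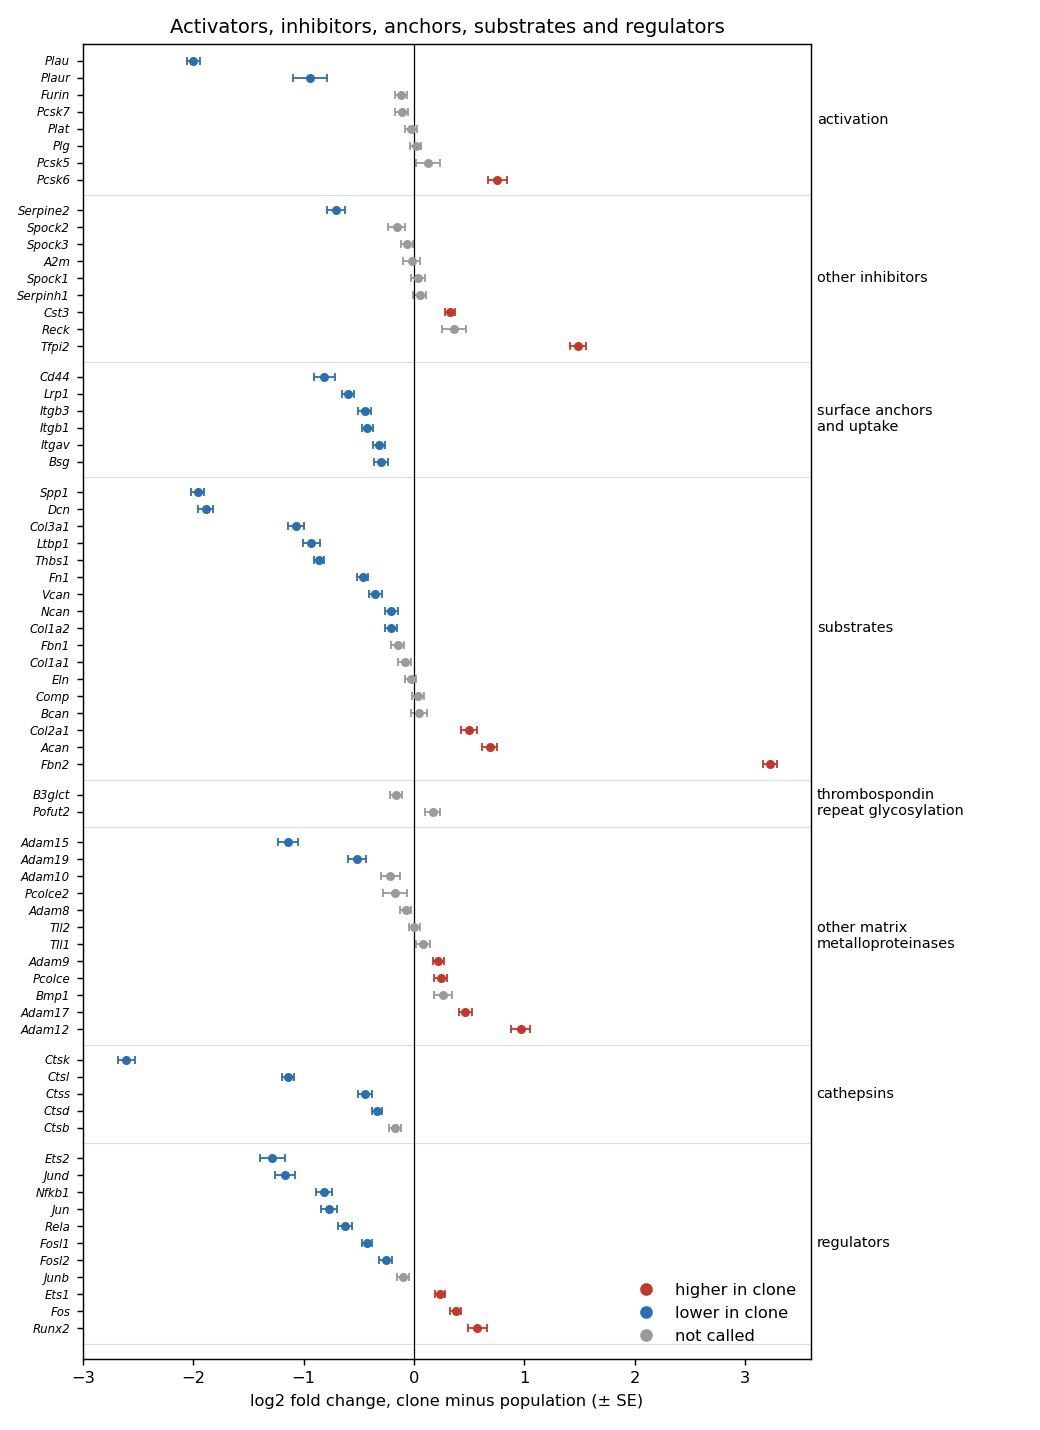
Log2 fold change (clone minus population, horizontal axis, with standard errors) of all but 1 of the 71 genes of activation, inhibition, anchoring, substrates, glycosylation, other metalloproteinases, cathepsins and regulation, coloured by call. All 6 surface anchor and uptake genes lie to the left in blue, and Fbn2 stands alone at 3.23 on the right.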

How the data were processed

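Per the labels' protocols, total RNA from TRI reagent extraction was turned into biotinylated cRNA for Affymetrix arrays. The values deposited by the authors are log2 expression levels, 1 per row and array; the submitters' processing notes name RMA and Partek. RMA makes each value relative to its array and compresses changes of dim genes. No source used here names the array type, the annotation or the build. The authors' deposited table gives, per the file headers, an unadjusted p-value and a signed linear fold (a score below -1 or above 1) per row; its log2 fold matched the group differences to within 7.8e-05. It also has 6 per-array columns whose names fit none of the labels; these were left out.

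All 35556 rows were fitted with limma 3.58.1 (lmFit, eBayes, two-sided) in R 4.3.3, which had 4 residual degrees of freedom and a prior of 2.72, and Benjamini-Hochberg adjustment over all rows; no filter was applied. All adjusted p-values are limma's unless named otherwise. The fit was tested on simulated data with independent noise in each row and few changed rows. That setting does not cover the many called rows and the chromosome-wide differences of these data. The number of arrays limits the precision. Symbols come from the authors' table, and all 51 members carry current RefSeq symbols (GRCm38.p6). Chromosome medians use 10880 genes above the median level. The members, lists and motifs were chosen with earlier results of these data known. All members could be named; of the other list, up to 4 called genes per sub-list and up to 2 going the other way were named, and Ltbp1, Vcan, Adam9, Pcolce, Ets1 and the genes that did not pass were added after their values were seen. The value of 1 gene of that list is not reported here.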

Additional observations from a re-analysis of the deposited data

How the results depend on the processing

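Across 17 alternatives, 13 of the 22 called members kept their direction and their call in every one: Adamts4, Adamts5, Adamts6, Adamts9, Adamts14, Adamtsl1, Adamtsl3, Adamtsl4, Mmp2, Mmp12, Mmp13, Mmp16 and Mmp23. Leaving out each array in turn gave 5 to 7 members higher and 14 to 15 lower, 12 to 13 and 29 to 31 of the other list, and 3422 to 4033 and 3208 to 3552 of all rows. Requiring a 1.5-fold difference left 2 members higher and 12 lower, 5 higher and 19 lower of the other list, and 1416 higher and 1689 lower rows of all; an adjusted p under 0.01 left 2531 higher and 2721 lower rows. These counts fall by construction, as the rules are stricter. With the authors' deposited p-values, adjusted in the same way, Timp1 (adjusted p = 0.0789), Adamts3 (0.0623), Adamts10 (0.0966), Mmp8 (0.135) and Timp4 (0.06) were not called, while Mmp28 (0.0366) and Timp2 (0.0486) were; the cause was not tested. Centring arrays on their medians turned the split over all rows from 4553 higher and 3893 lower into 3818 and 4367. With chromosomes centred, Adamts20, at the low end of the arrays and not called before, stood at 0.50 (adjusted p = 0.000166). That shift follows from the construction, since the chromosome 15 median subtracted is lower in the clone; Adamts16 on chromosome 13 moved likewise to 0.53. The replicate block, with the sample number of the labels in the fit, gave 6 members higher and 15 lower and ended the call of Timp4 (adjusted p = 0.113). Deviations of equally numbered samples correlated at -0.18, -0.14 and -0.04, so the numbers share no visible pairing, and no sample correlated best with its own number. Levels near or below the array medians have no measured floor, which limits the sizes for Adamts6, Adamts15, Adamtsl1, Mmp8, Mmp12 and Timp4.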
